A study of Mus musculus with 6 samples.

Results

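In mouse embryonic stem cells, 1573 regions of chromosomes 1 to 19 held a ChIP-seq peak of Nanog and a peak of Tgif1, of Tgif2 or of both, and no peak of Hdac1 or Smad3. The regions were found by joining all peaks of the 5 deposited peak lists that overlapped by at least 1 bp. This gave 32551 regions on these chromosomes, of which the members were 4.83%. They fell into 396 regions with Tgif1 only, 550 with Tgif2 only and 627 with both paralogs. The members were chosen by the presence and absence of peaks in the lists, so that presence and the class counts are given as a description and support nothing further.

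Binding of 5 proteins was mapped in J1 mouse embryonic stem cells that contain BirA, the bacterial biotin ligase, and were grown with leukemia inhibitory factor. Antibodies were used to precipitate Tgif1, Hdac1 and Smad3, whereas Tgif2 and Nanog were pulled down on streptavidin beads, which bind biotinylated protein. The beads are given in the labels of both samples, whereas the text on the study's design speaks of biotin ChIP for Nanog but not for Tgif2. Each protein had 1 library and 1 peak list, and the library from cells with BirA alone was not analysed here. On chromosomes 1 to 19 the Tgif1 list held 16273 peaks and the Tgif2 list 18976. Where Tgif1 and Tgif2 are compared, paralog, pull-down and length of the list cannot be told apart. All cells shared the J1 background and BirA, the depth of the libraries is not known, and binding of Tgif2 by the Tgif1 antibody was not tested.

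Nanog is a homeodomain transcription factor of the network that keeps embryonic stem cells pluripotent. Tgif1 and Tgif2 are closely related homeodomain proteins of the TALE class, known mainly as corepressors that bind Smad proteins in TGF-beta signalling and recruit histone deacetylases. Hdac1 removes acetyl groups from histones in several corepressor complexes, and Smad3 is a nuclear effector of the TGF-beta and Activin receptors. A region with Nanog and Tgif but no Hdac1 peak is therefore a place where the corepressors were mapped without the deacetylase, as far as 1 library of each could show.

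Strength was read from 2 values that the authors' peak caller gave each peak. Fold is the enrichment of the peak over its background, and tags is the number of sequenced tags in the peak. Both are values of the deposited lists, used here only within a list, and a percentile rank says where a peak stands in its own list. Over all peaks of a list the tags summed to between 43227 for Smad3 and 1347497 for Tgif2, with 821817 for Nanog. The weakest listed Nanog peak held 16 tags, the weakest Tgif1 peak 30, Tgif2 peak 33 and Hdac1 peak 28, so binding below such a level was not listed at all. Shares have 95% Wilson intervals and medians 95% order-statistic intervals. Both cover counting error only, because regions of 1 library are not replicates of a condition, and no p-value is given.

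The share of Nanog regions that held Tgif was smaller without Hdac1 than with it. Of the 8727 Nanog regions with neither Hdac1 nor Smad3, 18.0% (17.2 to 18.8) held a Tgif peak, against 72.9% (71.8 to 74.0) of the 6403 Nanog regions with Hdac1 and no Smad3. The members were 9.72% of all 16188 Nanog regions. They held 9.52% of the Nanog peaks, 6.42% of the Tgif1 peaks and 6.30% of the Tgif2 peaks on these chromosomes. In 1513 of the 1573 members each protein had at most 1 peak.

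The paralogs were split more evenly in the members than at Nanog regions with Hdac1. Both paralogs were present in 39.9% (37.5 to 42.3) of the members, against 72.2% (70.9 to 73.5) of the 4670 regions with Nanog, Tgif and Hdac1. Tgif1 alone made up 25.2% of the members, against 13.5% with Hdac1, and Tgif2 alone made up 35.0%, against 14.3% with Hdac1. Seen from each paralog, 61.3% of the members with Tgif1 also held Tgif2, against 84.2% with Hdac1. In the other direction, 53.3% of the members with Tgif2 also held Tgif1, against 83.5% with Hdac1. Among Tgif regions with none of Nanog, Hdac1 and Smad3, 36.6% held both paralogs, a share near that of the members, whereas Tgif2 alone took 44.2% and Tgif1 alone 19.2%.

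**Figure D1:**
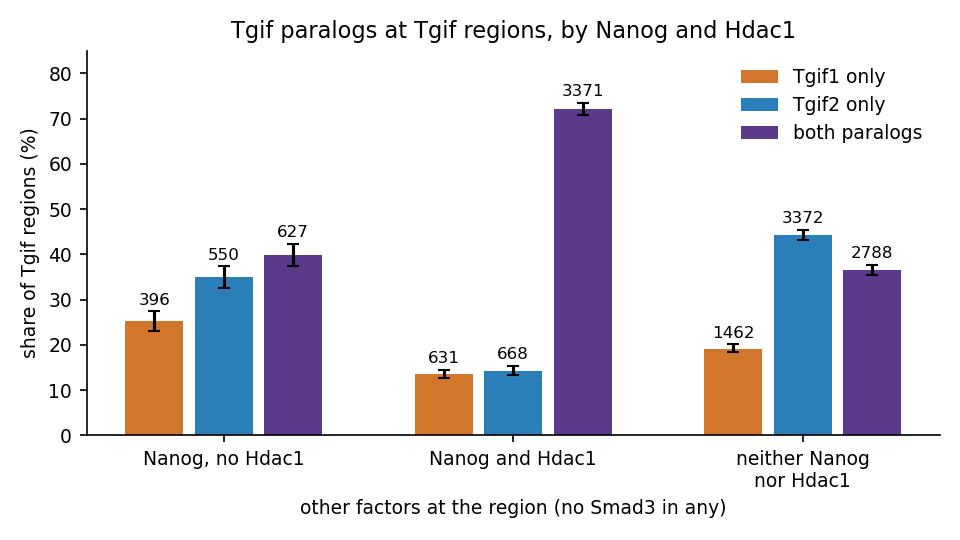
Share of Tgif regions (%) with Tgif1 only, Tgif2 only or both paralogs, at regions with Nanog and no Hdac1, with Nanog and Hdac1, and with neither; bars are shares, error bars 95% Wilson intervals and the numbers above them regions. Both paralogs took 39.9% of the regions with Nanog and no Hdac1, against 72.2% with Nanog and Hdac1.

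The presence of Tgif at Nanog regions without Hdac1 followed the size of the Nanog peak, but its direction depended on the measure of size. Over 5 bins of the Nanog list by tags, the share with Tgif was 13.5% at 16 to 19 tags, 15.7%, 18.6%, 21.6% and then 31.8% at 60 tags or more. By peak width it was 11.0% in the narrowest bin and 37.0% in the widest. Under the overlap rule a wider Nanog peak can meet a Tgif peak more readily, and how far this raised the share was not tested. By fold the share ran the other way over the first 4 bins, at 27.1%, 19.5%, 15.5% and 11.8%, with 16.3% in the bin of highest fold. At Nanog regions with Hdac1 the same shares were between 68.9% and 78.6% over the tag bins. By fold they also fell over the first 4 bins, at 78.8%, 73.6%, 72.9% and 68.7%, with 70.4% in the bin of highest fold. By width they were 62.7% in the narrowest bin and 82.3% in the widest. In every bin of tags and fold the share was smaller without Hdac1 than with it. The groups were set by the presence of Hdac1 peaks, so this describes the lists and tests nothing further. An Hdac1 peak can also join Nanog and Tgif peaks that do not overlap each other. With both paralogs, the median region width was 1409 bp with Hdac1, against 1069 bp in the members. How far such joining raised the shares with Hdac1 was not tested.

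**Figure D2:**
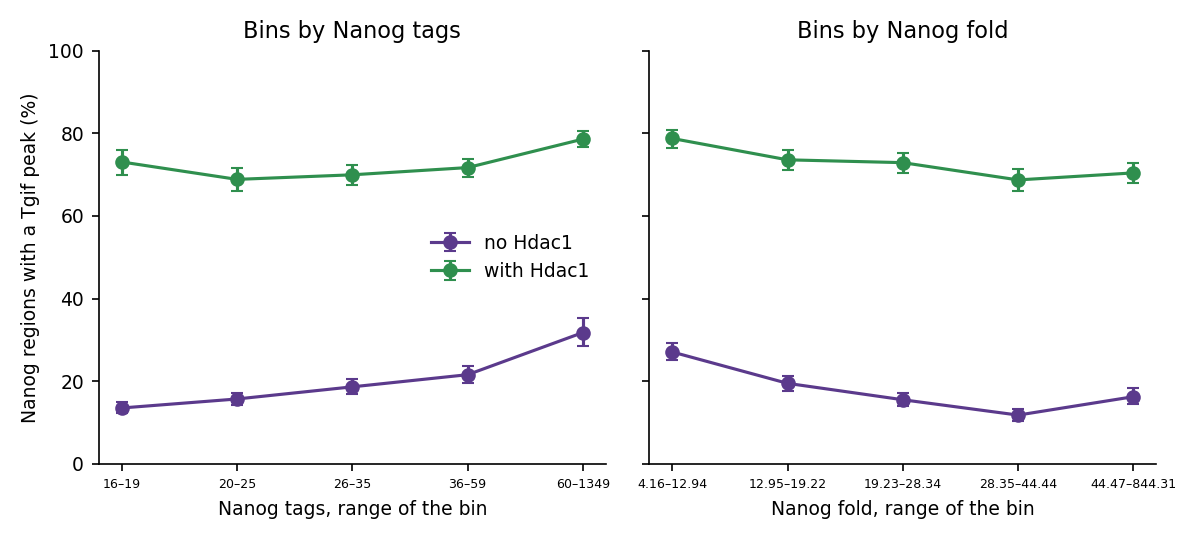
Share of Nanog regions with a Tgif peak (%) in 5 bins of Nanog tags (left) and Nanog fold (right), for regions without Hdac1 and with Hdac1, all without Smad3; points are shares and bars 95% Wilson intervals. Without Hdac1 the share was 13.5% in the lowest tag bin and 31.8% in the highest, and 27.1% in the lowest fold bin.

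The split between the paralogs differed little across the bins of Nanog tags. Of the members in each tag bin, 36.8% to 42.1% held both paralogs, against 70.4% to 73.9% of the Nanog and Tgif regions with Hdac1. By Nanog fold, both paralogs were present in 47.6% (43.2 to 52.1) of the members in the lowest bin and in 31.4% to 38.9% of those in the other bins. With Hdac1 the lowest fold bin also had the highest share, 75.5% (72.8 to 78.0), against 68.9% to 73.0% in the other bins.

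Nanog peaks of the members had lower folds but more tags than Nanog peaks that stood alone. The median Nanog fold was 19.7 (17.9 to 21.2) with Tgif1 only, 19.01 (17.7 to 20.7) with Tgif2 only and 16.4 (15.1 to 17.9) with both paralogs, against 23.8 (23.4 to 23.9) at the 7154 regions with a Nanog peak alone. It was 22.2 at Nanog regions with Tgif and Hdac1. The median tags were 28 over all members, against 24 at Nanog alone and 38 with Tgif and Hdac1, and the median width was 646 bp, against 561 bp at Nanog alone and 720 bp with Tgif and Hdac1. With every list limited to peaks that reached its median fold, regions were joined and classed anew, which left 713 members. Every Nanog peak below the list's median fold of 23.7 was removed, so this cut could not show whether low folds were more common in the members. The medians that remained were not lower in the members. They were 38.8 (35.5 to 41.3) for Tgif1 only, 36.2 (33.4 to 39.3) for Tgif2 only and 39.6 (36.18 to 43.3) for both paralogs, against 35.8 (35.8 to 36.15) at Nanog alone. The intervals of Tgif1 only and Tgif2 only met that of Nanog alone, and that of both paralogs lay above it.

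Within bins of Nanog tags, inside which the tags were not matched further, the median Nanog fold of the members stood below that of Nanog alone and near that of regions with Hdac1. At 16 to 19 tags the median fold was 13.7 (12.9 to 14.8) in the members, against 18.1 (17.6 to 18.6) at Nanog alone and 12.6 with Tgif and Hdac1. At 60 tags or more it was 44.3 (40.4 to 49.3) in the members, against 62.9 (57.7 to 68.3) at Nanog alone and 47.7 with Tgif and Hdac1. The 3 bins between had the same order of members and Nanog alone, and the members' peaks were wider than Nanog alone in all 5, for example 869 bp against 774 bp at 60 tags or more.

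Low Nanog folds were common in the members and high ones less so. A fold at or below the lower quartile of the Nanog list, 14.4, was found in 578 of the 1573 members (36.7%, 34.4 to 39.2), where the whole list gave 25.0%. By class the count was 124 of 396 with Tgif1 only, 183 of 550 with Tgif2 only and 271 of 627 with both paralogs, or 43.2% of these. A fold at or above the upper quartile was found in 276 members, or 17.5%, against 25.0% in the whole list. By tags, 30.5% of the members were at or below the lower quartile, close to the 28.2% of the whole list, and 20.1% at or above the upper quartile, where the whole list gave 25.6%.

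**Figure D3:**
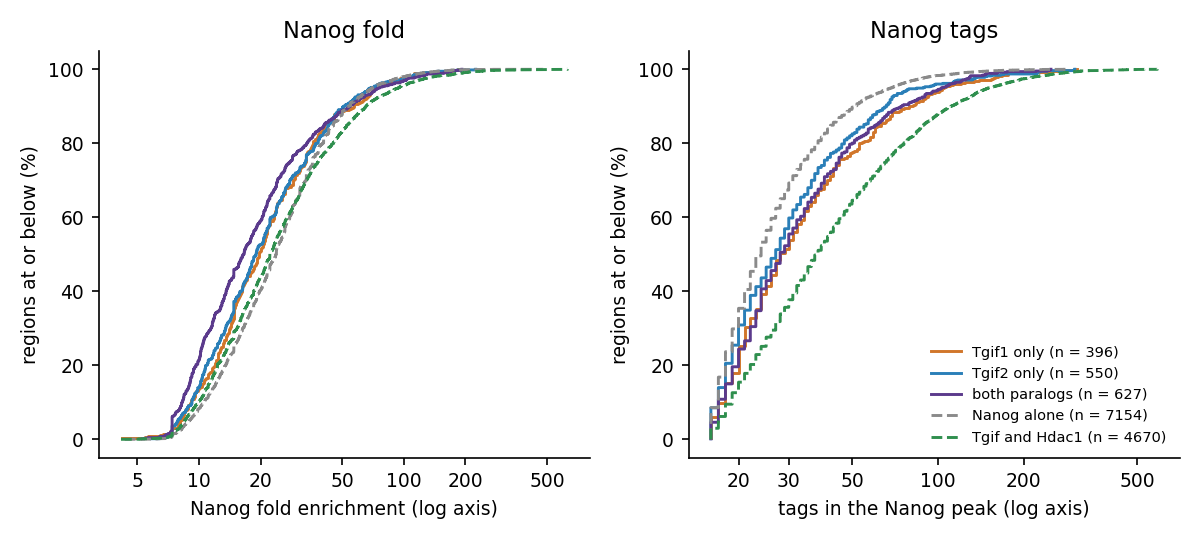
Cumulative share of regions (%) by Nanog fold enrichment (left) and by tags in the Nanog peak (right), both on log axes, for the 3 member classes (solid lines) and for Nanog alone and Nanog with Tgif and Hdac1 (dashed lines). Regions with both paralogs lay furthest to the left by fold, with a median of 16.4, and the median tags of the 3 classes, 28, 27 and 28, lay between the 24 of Nanog alone and the 38 of the regions with Hdac1.

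Some members ranked among the strongest Nanog sites of the list, and the Tgif peaks there were of very different rank. The Tgif1-only region with the highest Nanog fold was chr1:174252739-174253898 (mm9). Its Nanog peak had 272 tags and a fold of 185, a percentile rank of 99.1, and its Tgif1 peak had 58 tags and a fold of 9.94, a rank of 26.8. The next was chr2:170663491-170664258, with Nanog at a fold of 172 from 107 tags and Tgif1 at 16.3 from 39 tags. In both, the 2 summits lay close, 31 bp and 69 bp apart. The next 2, chr6:124781535-124782205 and chr4:119170667-119171903, had Nanog folds of 154 and 129, with Tgif1 peaks of 35 and 30 tags. The last of these was at the minimum of the Tgif1 list.

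The Tgif2 peaks at such sites varied as widely. The Tgif2-only regions with the 2 highest Nanog folds, 225 and 182, both lay on chromosome 18, and their Tgif2 peaks had percentile ranks of 76.1 and 97.0 by fold, from 38 and 51 tags. At chr8:48811861-48812905 a Nanog peak with a fold of 165 and 224 tags stood 30 bp from the summit of a Tgif2 peak with a fold of 15.2 and 41 tags. The fourth, at chr1:72288813-72291388, had a Nanog fold of 145 and the Tgif2 summit 860 bp away. That Tgif2 peak held 142 tags but had a fold of 6.29, a rank of 1.76 in its list, so here tags and fold gave opposite pictures.

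Among regions with both paralogs, the highest Nanog fold was 192, from 125 tags, at chr1:90363082-90363881. Its Tgif1 peak had a fold of 21.5 and its Tgif2 peak a fold of 19.04, each from 39 tags, and all 3 summits lay within 17 bp. The region chr10:62552045-62552870 had a Nanog fold of 191 with Tgif1 and Tgif2 peaks at percentile ranks of 98.8 and 93.9 of their lists, so that all 3 proteins ranked high by fold. At chr2:33492601-33493536 the Nanog fold was 177, with Tgif1 at 31 tags and Tgif2 at 45. The fourth, chr10:9051420-9052052, had a Nanog fold of 170 and Tgif ranks of 96.3 for Tgif1 and 93.1 for Tgif2. These 4 regions lay between 20101 bp and 245744 bp from the nearest Hdac1 peak.

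The members with the lowest Nanog folds were broad regions with many tags and little enrichment. The lowest, 4.22 at chr9:40614307-40615687, came with 58 Nanog tags and a Tgif1 peak of 140 tags and a fold of 6.61. With Tgif2 only it was 5.85 from 55 tags at chr6:3132235-3134196, next to a Tgif2 peak of 182 tags and a fold of 5.67. With both paralogs it was 5.28 from 46 tags at chr11:109333384-109336109, a region of 2725 bp. In all 3 the Nanog fold was in the lowest 1% of its list although its tags were above the list's median of 30.

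Tgif peaks of the members were weaker by tags where only 1 paralog was present. Tgif1 peaks had a median of 39 tags (38 to 41) with Tgif1 only and 50 (48 to 52) with both paralogs, against 54 over the whole Tgif1 list on these chromosomes. Tgif2 peaks had a median of 42 tags (41 to 43) with Tgif2 only and 55 (53 to 57) with both, against 58 over the whole Tgif2 list. With Hdac1 the single-paralog peaks were close to these, at 41 tags for Tgif1 and 44.5 for Tgif2, but where both paralogs were present they held 64 Tgif1 tags and 69 Tgif2 tags. The difference between members and regions with Hdac1 was therefore larger where both paralogs were present than where 1 was.

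By fold the classes were closer together. The median Tgif1 fold was 12.2 (11.7 to 13.0) with Tgif1 only and 12.9 (12.2 to 13.6) with both, against 13.3 over the list. The median Tgif2 fold was 12.9 (12.4 to 13.5) with Tgif2 only and 13.8 (12.9 to 14.6) with both, against 14.1 over the list. The intervals of the 2 classes met for each paralog. With Hdac1 and both paralogs the medians were 15.1 for Tgif1 and 15.1 for Tgif2, above the intervals of the members with both.

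Many single-paralog members had a Tgif peak with few tags, at or below the lower quartile of its list. For Tgif1 this was 217 of 396 regions with Tgif1 only (54.8%, 49.9 to 59.6) and 203 of 627 with both paralogs (32.4%, 28.8 to 36.1), where the whole list gave 26.2%. For Tgif2 it was 308 of 550 with Tgif2 only (56.0%, 51.8 to 60.1) and 154 of 627 with both (24.6%, 21.4 to 28.1), where the whole list gave 26.4%. The share with both paralogs was thus near the background for Tgif2. Single-paralog regions elsewhere were also above the whole lists. For Tgif1 the share was 49.8% (45.9 to 53.7) with Nanog and Hdac1 and 53.1% (50.5 to 55.6) without Nanog, Hdac1 and Smad3, and both intervals met that of the members. For Tgif2 it was 46.6% (42.8 to 50.3) with Nanog and Hdac1, below the interval of the members, and 50.7% (49.1 to 52.4) without Nanog, Hdac1 and Smad3.

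**Figure D4:**
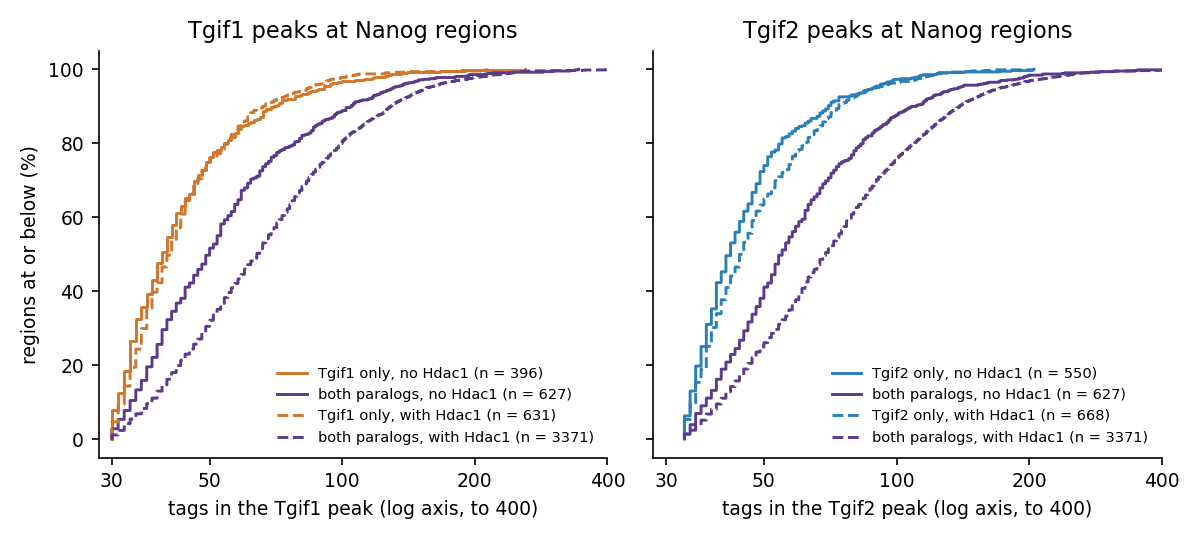
Cumulative share of Nanog regions (%) by tags in the Tgif1 peak (left) and the Tgif2 peak (right), on log axes drawn to 400 tags, for single-paralog regions and regions with both paralogs, without Hdac1 (solid) and with Hdac1 (dashed). Single-paralog peaks lay to the left, with medians of 39 Tgif1 tags and 42 Tgif2 tags in the members, against 50 and 55 where both paralogs were present.

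The strongest Tgif peaks of the members stood at Nanog peaks of very different strength. The 3 Tgif1-only regions with the highest Tgif1 fold were chr14:35476533-35477762, chr16:76319727-76320539 and chr14:48475891-48478042, with Tgif1 folds of 47.2, 42.3 and 42.0. Their Nanog folds were 37.7, 28.7 and 25.5, between percentile ranks of 54.0 and 73.1. The first of them held 136 Tgif1 tags and 113 Nanog tags and lay 408 bp from an Hdac1 peak. With Tgif2 only, chr19:37252215-37253067 had the highest Tgif2 fold, 86.0 from 89 tags, at a Nanog peak of 17 tags. The next, chr6:54817162-54817864, had a Tgif2 fold of 72.7 and also 17 Nanog tags, and the third, chr4:98201942-98202698, had 60.3 with 45 Nanog tags. For 2 of these 3 the Nanog peak was thus close to the minimum of 16 tags.

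With both paralogs, the highest Tgif1 folds were 94.9 at chr8:8871702-8872473, 81.7 at chr10:86948788-86949606 and 79.7 at chr5:119588945-119589863, and the Tgif2 folds there were 67.2, 62.8 and 64.5. Both paralogs thus ranked above 98 in their lists at all 3 regions. The highest Tgif2 fold was 187, from 349 tags, at chr15:103135132-103136500, where Tgif1 had a fold of 41.5 from 127 tags. It was followed by 109 at chr5:135781984-135782786 and 101 at chr7:20505310-20507133, with Tgif1 folds of 54.7 and 22.2. The Nanog folds of these 3 regions were 14.4, 40.6 and 11.9, so 2 of them had Nanog peaks at or below the lower quartile of the list.

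Where both paralogs were present, their strengths went together more closely than either did with Nanog. Over the 627 regions the rank correlation (Spearman's rho) of Tgif1 and Tgif2 was 0.72 by fold and 0.62 by tags, against 0.68 and 0.64 over the 3371 regions with Hdac1. Between Nanog and Tgif1 it was 0.33 by fold and 0.09 by tags, and between Nanog and Tgif2 0.27 and 0.08. These are correlations across regions of the same libraries and describe those libraries. In 228 of the 627 regions both Tgif peaks ranked in the upper part of their lists by fold, split at the median, and in 255 both ranked in the lower part. The 2 mixed cases were close in number, with 71 regions where Tgif1 alone was in the upper part and 73 where Tgif2 alone was.

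A member whose Tgif peak held more tags more often held the other paralog too. Among members with Tgif1, Tgif2 was present in 46.0% (40.9 to 51.2) at 30 to 38 Tgif1 tags and in 81.2% (73.2 to 87.2) at 88 tags or more. Among members with Tgif2, Tgif1 was present in 32.3% (27.8 to 37.3) at 33 to 40 Tgif2 tags and in 80.0% (72.1 to 86.1) at 92 tags or more. At Nanog regions with Hdac1 the shares were higher in each of the 5 tag bins of both paralogs. In the lowest bins 62.2% held the other paralog beside Tgif1 and 59.8% beside Tgif2, and in the highest bins 97.2% and 96.8%. By fold the members' shares differed less and did not rise steadily. Beside Tgif1 they were 54.0% (47.5 to 60.4), 66.5%, 57.5%, 61.5% and 67.8% (60.7 to 74.1) from the lowest to the highest bin. With Hdac1 the lowest and highest bins had 72.4% and 91.8%. Beside Tgif2 they were 50.0% (44.2 to 55.8), 53.8%, 46.8%, 57.5% and 59.5% (52.7 to 66.0), and the intervals of the lowest and highest bins met. With Hdac1 these bins had 76.0% and 90.3%.

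The summits of Nanog and Tgif lay close to each other in most members. The overlap rule limits these distances, so they are read beside all regions that held the same pair. The median distance from the Nanog to the Tgif1 summit was 55.5 bp (46 to 64) with Tgif1 only and 65 bp (57 to 72) with both paralogs. To the Tgif2 summit it was 65 bp (56 to 75) with Tgif2 only and 73 bp (62 to 82) with both. With Hdac1 the medians were near these, at 54 bp and 72 bp to Tgif1 for single and both paralogs, and at 62 bp and 80 bp to Tgif2.

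The share of members with summits within 100 bp was near the background. Nanog and Tgif1 summits were at most 100 bp apart in 665 of 1023 members (65.0%, 62.0 to 67.9), against 62.2% of all regions with the pair. Nanog and Tgif2 summits were so in 708 of 1177 members (60.2%, 57.3 to 62.9), against 58.5% of all regions with the pair. Both intervals held the share of all regions. The 2 paralogs lay closer to each other than to Nanog, with a median of 33 bp (30 to 39) in the members, against 41 bp (39 to 44) with Hdac1. Without Nanog, Hdac1 and Smad3 it was 38 bp (36 to 40), an interval that met that of the members. Of the members' pairs 74.6% (71.1 to 77.9) lay within 100 bp, against 70.4% over all regions with both. Where both paralogs were present the Tgif1 summit was the nearer one to Nanog in 333 members (53.1%, 49.2 to 57.0) and the Tgif2 summit in 288 (45.9%), with 6 equal. With Hdac1 the split was near the same, at 52.6% and 46.7%.

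**Figure D5:**
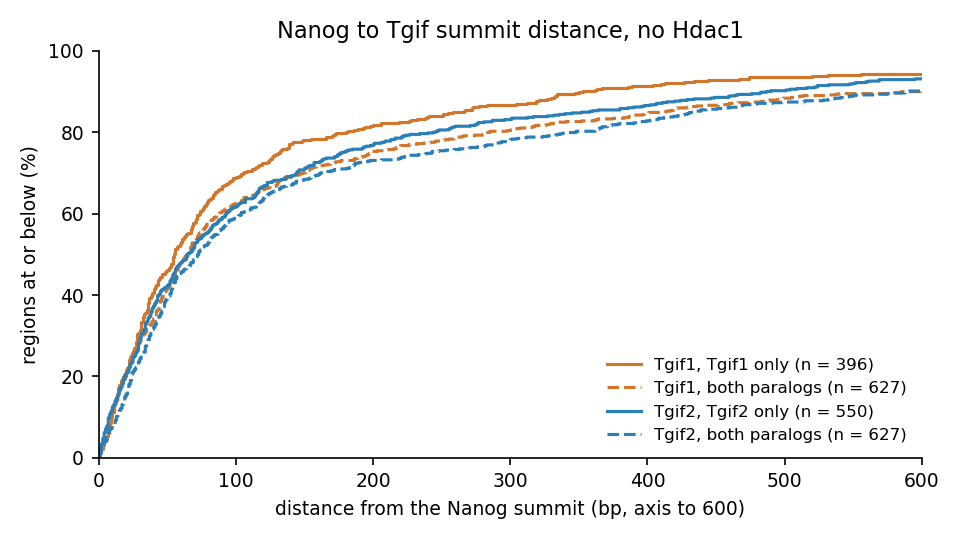
Cumulative share of member regions (%) by distance from the Nanog summit to the Tgif1 or Tgif2 summit (bp, drawn to 600), for single-paralog regions (solid) and regions with both paralogs (dashed). Medians were 55.5 bp for Tgif1 only, 65 bp for Tgif2 only, and 65 bp and 73 bp for Tgif1 and Tgif2 where both were present.

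The overlaps were seldom marginal. The Nanog summit lay inside the Tgif1 peak in 380 of the 396 regions with Tgif1 only (96.0%) and inside the Tgif2 peak in 527 of the 550 with Tgif2 only (95.8%). At single-paralog regions with Hdac1 these shares were near the same, at 95.6% and 94.5%. The shorter of the 2 peaks lay wholly inside the other in 50.5% of each of these member classes, against 50.6% and 50.1% with Hdac1. The strongest Nanog and Tgif peaks shared 100 bp or less in 5 regions with Tgif1 only (1.26%) and 4 with Tgif2 only (0.727%), against 2.69% and 3.14% with Hdac1. With both paralogs present it was 26 regions (4.15%) for Tgif1 and 22 (3.51%) for Tgif2, against 6.38% for each with Hdac1. Of the 627 regions with both paralogs, Nanog overlapped both directly in 609, Tgif1 but not Tgif2 in 6, and Tgif2 but not Tgif1 in 12, where the paralogs' own overlap joined the region.

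Near the edge of the rule, the member closest to an Hdac1 peak was chr11:100477470-100478103, 14 bp from it, a region with both paralogs and peaks of 45 Nanog, 36 Tgif1 and 39 Tgif2 tags. The next was chr1:60621908-60622497, with Tgif2 only and 32 bp from Hdac1. Just outside, chr14:4751099-4753176 was left out for an Hdac1 overlap of 36 bp, and chr12:109522962-109525084 for one of 114 bp. Such small overlaps were rare, since 1 of the 4670 regions left out for Hdac1 had an overlap of 100 bp or less. In 38 of them Hdac1 overlapped a Tgif peak but no Nanog peak. A further 46 regions with Nanog and Tgif but no Hdac1 were left out for Smad3.

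Members lay nearer to Hdac1 peaks than Nanog-alone regions did. The median distance to the nearest Hdac1 peak was 16.03 kb (14.3 to 18.3) in the members, against 27.7 kb (26.2 to 29.5) at Nanog alone. It was 11.8 kb (9.48 to 14.7) with Tgif1 only, 21.7 kb (17.1 to 27.4) with Tgif2 only and 15.4 kb (12.5 to 19.8) with both. The interval of Tgif2 only met that of Nanog alone. An Hdac1 peak stood within 1 kb of 172 members (10.9%, 9.49 to 12.6), against 7.85% of all Nanog regions without Hdac1 and Smad3, and within 10 kb of 645 members (41.0%, 38.6 to 43.5), against 32.5%. The nearest Smad3 peak lay at a median of 395 kb (351 to 433) from the members, against 522 kb (497 to 547) at Nanog alone, and within 1 kb of 0.954% of the members, against 1.05% at Nanog alone.

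Other Nanog regions were likewise closer to the members, the nearest being 13.7 kb (11.9 to 15.2) away, against 21.1 kb (19.8 to 22.2) for Nanog alone and 9.88 kb for Nanog with Tgif and Hdac1. By class it was 9.63 kb with Tgif1 only, 18.0 kb (14.3 to 20.8) with Tgif2 only and 13.65 kb with both. Again the interval of Tgif2 only met that of Nanog alone. The median distance from a member to the nearest other member was 213 kb, and 20 of the 1573 had another within 1 kb. At single-paralog regions the missing paralog was nearer than at Nanog alone. The missing Tgif2 was within 1 kb of 38 of the 396 Tgif1-only regions (9.60%, 7.07 to 12.9), against 6.402% of Nanog-alone regions, and its median distance was 11.7 kb, against 27.4 kb. The missing Tgif1 was within 1 kb of 58 of the 550 Tgif2-only regions (10.5%, 8.25 to 13.4), against 5.88% of Nanog-alone regions, and its median distance was 20.3 kb, against 31.6 kb.

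Members were found on each of the 19 chromosomes. They made up between 10.8% of the Nanog regions without Hdac1 and Smad3 on chromosome 16 and 23.1% on chromosome 15, with a median of 17.9%. Both paralogs were the most frequent class on 15 of the 19 chromosomes. Tgif2 only outnumbered Tgif1 only on 13 chromosomes, was fewer on 5 and equal on 1. The Tgif2 list was also the longer one, and paralog, pull-down and list length cannot be told apart in these counts.

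The share of Nanog regions without Hdac1 and Smad3 that held Tgif2 only was highest on chromosomes 1, 15 and 18. On chromosome 1 there were 87 such regions among 868 Nanog regions without Hdac1 and Smad3 (10.02%, 8.20 to 12.2), against 5.89% (5.39 to 6.43) over the other chromosomes. Tgif1 only did not follow, with 31 regions or 3.57% (2.53 to 5.02), against 4.64% (4.20 to 5.13) elsewhere. The chromosome held 15.8% of all Tgif2-only members, whereas it carried 8.37% of the Tgif2 peaks, 9.58% of the Nanog peaks and 7.13% of the Tgif1 peaks. Tgif2-only regions with Nanog and Hdac1 were also frequent there, with 13.6% of their class, and those with none of Nanog, Hdac1 and Smad3 less so, with 9.64%. The 87 regions were spread along the chromosome, with 1 to 15 in each 20 Mb stretch. On chromosome 18, 27 Nanog regions without Hdac1 and Smad3 held Tgif2 only (8.71%, 6.05 to 12.4), which was 4.91% of the class beside 2.71% of the Tgif2 peaks. On chromosome 15 it was 30 regions (8.90%, 6.31 to 12.4), or 5.45% of the class beside 4.34% of the Tgif2 peaks. These chromosomes were singled out after their counts had been seen.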

How the data were processed

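The values are those of 5 deposited peak lists, 1 per protein. Per the submitters' processing notes, the tools were BWA 0.5.9-r16 and MACS, and the genome build was mm9. MACS settings and version, the control, the threshold and the library depth are not given in the sources used here. The lists have no header, so columns were identified from their values. Each deposited peak carries a fold, the ratio of peak over background, and a count of tags, both made by the authors' peak caller. Whether starts count from 0 or 1 is not stated, so coordinates are as deposited, within 1 bp.

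Peaks that overlapped by at least 1 bp were joined on chromosomes 1 to 19. A protein's value in a region is that of its peak with the highest fold, and summit distances are between these peaks. The rule for named regions took, in each class, the 4 highest and the 1 lowest Nanog folds and the 3 highest Tgif folds, plus the 2 members nearest to Hdac1 and the 2 regions left out with the smallest Hdac1 overlap. The members, classes and rules were chosen with earlier results of these data known. Joining was run on simulated data, where 300 of 300 planted members were recovered. Planted peaks of a region had nearly the same centre and planted regions lay far apart, so small overlaps and chains of peaks were not tested there. On the real lists joining was compared with bedtools 2.31.1, with 0 of 32551 regions differing. Sequence, motifs and nearby genes were planned but not run, because a genome or annotation of mm9 was not used here. Tables were handled in pandas 2.3.3 and NumPy 2.4.6 under Python 3.11.15, intervals came from statsmodels 0.14.6 and SciPy 1.17.1, and plots from matplotlib 3.10.9.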

Additional observations from a re-analysis of the deposited data

How the results depend on the processing

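No replicate check exists for any value, and no paired analysis was possible because each protein had 1 library. A protein counts as absent where its list has no peak, so the calling threshold and the unknown depth set the classes. Of 145 recomputed values, 111 stayed within 1.5 times the count or inside the 95% interval. Asking for an overlap of 50% of the shorter peak, leaving out chromosome 1 and counting the ends as part of the peak moved none. The last of these, the removal of the 1% of peaks richest in tags, and the alternatives for the shares with both paralogs and for Nanog alone were chosen after seeing the data.

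Keeping in each list only peaks that reached its median fold moved all 17 recomputed values. It left 713 members, of which 247 had Tgif1 only, 214 Tgif2 only and 252 both paralogs. The share of Nanog regions without Hdac1 and Smad3 that held Tgif was then 13.6%. Both paralogs were in 35.3% of the members and 56.9% of the regions with Hdac1. Median Nanog folds were 38.8 (35.5 to 41.3), 36.2 (33.4 to 39.3) and 39.6 (36.18 to 43.3) with Tgif1 only, Tgif2 only and both, and 35.8 (35.8 to 36.15) at Nanog alone. Median Tgif1 folds were 17.2 (16.3 to 17.7) with Tgif1 only and 22.5 (20.2 to 23.9) with both. Median Tgif2 folds were 18.9 (17.7 to 20.7) with Tgif2 only and 23.0 (21.3 to 24.8) with both. The Tgif intervals of single-paralog regions and regions with both thus did not meet here, unlike those from the full lists. The cut on fold also set the classes, since both paralogs required that each Tgif peak reach its list's median. The 2 Tgif folds went together, with a rho of 0.72 in members with both from the full lists. These intervals therefore cannot show a difference between the classes apart from the cut. Summit distances were 46 bp to Tgif1 and 54.5 bp to Tgif2. For Nanog fold, the intervals of Tgif1 only and Tgif2 only met that of Nanog alone, and that of both paralogs lay above it. By construction fewer and stronger peaks were used, regions were classed anew and low Nanog folds were removed. These medians therefore cannot test the lower Nanog fold seen with the full lists.

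The distances to Tgif1 and Tgif2 were 55 and 58 bp with peaks cut to 250 bp around the summit on each side, 68 and 84 bp with peaks joined within 500 bp, and 106 and 108 bp between midpoints. Joining within 500 bp gave a share with Tgif of 18.9% and a Nanog fold of 24.03 at Nanog alone, and peaks of fixed width 67.0% with both paralogs beside Hdac1 and a fold of 23.2 at Nanog alone. Beside Hdac1 the share with both was 73.7% without the Smad3 list and 70.7% without the 1% of peaks richest in tags. Ranked by tags in place of fold, median percentile ranks of Nanog were 46.8, 44.4 and 46.8 with Tgif1 only, Tgif2 only and both, against 40.3, 38.3 and 31.5 by fold. Tgif1 with Tgif1 only ranked at 23.1, against 43.9 by fold, and Tgif2 with Tgif2 only at 23.6, against 43.2 by fold.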

Other observations

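Chromosome X, left out of the joined regions above, held few such regions. Of its 213 Nanog regions without Hdac1 and Smad3, 18 held a Tgif peak (8.45%, 5.41 to 13.0), against 18.0% (17.2 to 18.8) on chromosomes 1 to 19. They were 8 regions with Tgif1 only, 6 with Tgif2 only and 4 with both paralogs. The copy number of chromosome X in these cells was not taken into account, and its part in the lower share was not tested. On chromosome Y and unplaced sequence together it was 2 of 136 (1.47%, 0.404 to 5.20), 1 with Tgif2 only and 1 with both.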
